A study of Mus musculus with 10 samples.

Results

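The genes described here carry symbols given to proteins of the cytoplasmic ribosome or to their paralogs. They were taken by symbol: every probe set assigned to a single gene whose symbol is Rpl or Rps followed by a number, with the suffixes a, x, y, l or a digit allowed, together with Rplp0, Rplp1, Rplp2, Rpsa and Fau. The rule found 106 of 45101 probe sets, which stand for 50 of 18193 genes. By symbol, 26 were counted with the large subunit and 24 with the small subunit. A symbol does not show that the product is part of the mature ribosome, and paralogs such as Rpl7l1 are counted here by symbol only. A further 110 probe sets carry a ribosomal protein symbol together with symbols of other genes, mostly processed pseudogenes, and 28 symbols of the family, among them Rpl3, Rpl5 and Rplp1, occur on such probe sets only. These were kept apart from the 106.

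RNA of wild type C57Bl/6 mice was hybridised to Affymetrix MOE430_2 arrays. NK cells were flow sorted from spleen as NK1.1+CD3- cells to over 99% purity, and 3 arrays held NK cells stimulated with 100 ng/mL recombinant mouse IL-15 for 24 h. A further 3 arrays held resting NK cells lysed straight after sorting, and 4 arrays held bulk resting splenocytes, which come from 2 biological samples hybridised to 2 chips each. IL-15 NK cells had been in culture and resting NK cells had not, and NK cells cultured in the absence of IL-15 were not analysed here, so the cytokine and the culture cannot be told apart. NK RNA went through a 2-cycle amplification and splenocyte RNA through a 1-cycle amplification, so cell source and amplification cannot be told apart either.

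A cytoplasmic ribosome joins a large and a small subunit, each built of ribosomal RNA and a set of proteins that are needed in nearly equal numbers. The messenger RNAs of these proteins begin with a tract of pyrimidines, the 5-prime terminal oligopyrimidine (TOP) motif, through which the protein LARP1 and the kinase mTOR set how actively they are translated. Lymphocytes that leave rest to grow and divide make more ribosomes, and much of the control over ribosomal protein output is exerted on translation rather than on the amount of messenger RNA, which is what arrays measure.

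The sequence around the annotated gene start is shown for the 8 genes that changed after IL-15, because the pyrimidine tract is the feature by which the family is usually recognised. Each line gives 30 bases on the gene's strand, 15 before the start and 15 from it, with the longest run of C and T in capitals. The bases were taken from RefSeq promoter sequences of build GRCm38.p6. The windows are Rpl12 at chr2:32961697-32961726 (plus strand), Rpl14 at chr9:120571502-120571531 (plus), Rpl27a at chr7:109519180-109519209 (plus), Rpl7l1 at chr17:46782642-46782671 (minus), Rps19 at chr7:24884898-24884927 (plus), Rps27 at chr3:90213634-90213663 (minus), Rps27l at chr9:66946071-66946100 (plus) and Rps6 at chr4:86857353-86857382 (minus). Each is centred on a transcription start, so its second part lies in the first exon.
Rps19: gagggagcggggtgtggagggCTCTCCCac
Rps27l: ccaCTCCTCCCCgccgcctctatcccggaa
Rps6: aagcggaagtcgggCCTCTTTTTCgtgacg
Rpl12: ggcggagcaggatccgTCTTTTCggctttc
Rpl14: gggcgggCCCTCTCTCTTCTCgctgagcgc
Rpl7l1: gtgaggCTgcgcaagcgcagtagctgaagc
Rps27: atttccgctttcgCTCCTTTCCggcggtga
Rpl27a: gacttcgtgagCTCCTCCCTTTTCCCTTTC

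The run was 19 bases long in Rpl27a and 14 in Rpl14, between 7 and 10 in Rps6, Rps27, Rps27l, Rps19 and Rpl12, and 2 in Rpl7l1. Runs of 9 or more occurred in both genes that fell and, among the 6 that rose, in Rpl14, Rps6 and Rps27l. A link of run length to direction was not tested. Relative to the annotated start, the run of Rps27l began at -12 and ended before the start, outside the annotated transcript. The run spanned the start in Rpl14, Rpl27a, Rps27 and Rps6, where it began at -8, -4, -2 and -1. In Rpl12 and Rps19 it began past the start, at 1 and 6. A run in this window therefore need not be a TOP motif. Of the 50 genes, 44 matched the RefSeq promoter table, and 28 of them (63.6%) held a run of 6 or more pyrimidines in this window, against 5675 of 17491 protein-coding genes (32.4%). Where a gene had several annotated starts, the window with the longest run was used, for the family and for all genes alike. The letters CCGGAAG, the core recognised by ETS family transcription factors, were sought from 250 bases before to 50 bases after every annotated start. On either strand they stood at 1 or more starts of 21 of the 44 genes (47.7%), against 2264 of 17491 (12.9%). These are matches of letters and no evidence of a used start or of a bound factor.

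Ribosomal protein signals were among the brightest of every array. Every array has the same trimmed mean, so a signal is relative to the rest of its array, and a fall of the whole family in RNA per cell cannot be told apart from its dilution by other transcripts or other cells. The family's median log2 signal was 15.97, 15.86 and 15.79 on the IL-15 NK arrays, 15.64, 16.36 and 15.37 on the resting NK arrays, and 16.91, 16.91, 16.66 and 16.58 on the splenocyte chips. IL-15 NK values lay inside the range of resting NK values, and all splenocyte chips lay above all NK arrays. The 50 genes made up 4.38%, 4.39% and 4.20% of the summed signal of all 18193 genes in IL-15 NK cells, 4.38%, 6.05% and 3.78% in resting NK cells, and 8.49%, 8.40%, 7.56% and 6.97% in splenocytes. Among the 100 brightest genes of an array, between 24 and 26 belonged to the family in IL-15 NK cells, between 16 and 28 in resting NK cells and between 34 and 35 in splenocytes.

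Resting NK replicate 2 stood apart in these genes. Its members differed from those of the other resting arrays by a median of 0.55 and 0.65 on the log2 scale, whereas resting replicates 1 and 3 differed by 0.26 and IL-15 NK arrays by 0.16 to 0.22. The 3-prime over 5-prime signal ratio of the Gapdh control, a measure of RNA integrity and labelling, was 3.75, 2.90 and 3.81 on IL-15 NK arrays, 6.13, 9.54 and 5.88 on resting NK arrays and 1.0 to 1.39 on splenocyte chips, highest on resting replicate 2. That of the Actb control was 1.28 to 1.49 on IL-15 NK arrays, 2.27 to 6.51 on resting NK arrays and 1.34 to 1.59 on splenocyte chips, so by this control IL-15 NK arrays overlapped the splenocyte chips. All 12 NK markers measured were higher in both kinds of NK array than in splenocytes. The summed signal of 12 B cell markers was 4477.6 to 6285.6 in IL-15 NK cells, 11437.1 to 35968.3 in resting NK cells and 248191.2 to 300822.7 in splenocytes, with 3 to 6, 6 to 12 and 12 of them above the floor of 179.8 signal units, under which values were set to it. For 13 macrophage markers the sums were 1686.7 to 2100.4, 8211.7 to 30607.2 and 215038.6 to 240355.8. The part of amplification, labelling and cell mixture in the differences below was not tested.

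**Figure D1:**
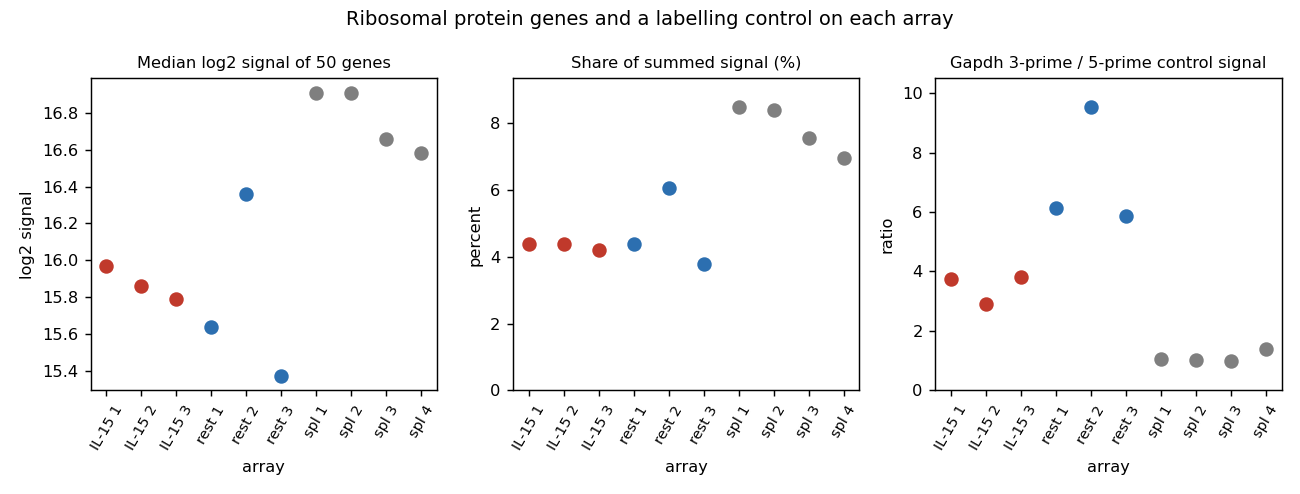
Each point is 1 array of IL-15 NK cells (IL-15), resting NK cells (rest) or splenocytes (spl): the median log2 signal of the 50 ribosomal protein genes (left), their percent of the summed signal of all genes (middle) and the 3-prime over 5-prime signal ratio of the Gapdh control (right). Splenocyte chips had the highest family signals and the lowest ratios, and resting NK replicate 2 stood above the other NK arrays in all 3 panels.

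The first comparison sets IL-15 NK cells against resting NK cells and covers culture, cytokine and the difference in Gapdh ratio together. The median difference over the 48 genes tested was 0.03 on the log2 scale, and -0.09 over all 11433 genes tested, although it was -0.08 when arrays were centred on the median gene and 0.17 after quantile normalisation, where the median of all genes was -0.20 and 0.01. Leaving out 1 array moved the family median to between -0.22 (without resting replicate 3) and 0.19 (without resting replicate 2), so its sign is not settled. Single members moved, with 6 higher, 2 lower and 40 that did not pass (limma, Benjamini-Hochberg adjusted p under 0.05 over all genes). Over all genes tested 26.3% passed, 14.2% higher and 12.1% lower, beside 8 of 48 members. Without resting replicate 2 the higher members numbered 11, and without IL-15 replicate 3 the lower members numbered 0, with 1 lower without resting replicate 1 or IL-15 replicate 1. Differences ranged from -1.50 to 1.49. In 8 members every IL-15 NK array was above every resting NK array and in 8 every one was below, against 20.5% and 21.6% of all genes. The large subunit had 3 higher and 1 lower of 25 tested, with a median of 0.14, and the small subunit 3 higher and 1 lower of 23, with a median of -0.19. The 2 genes not tested, Rps16 and Rpl3l, lay below the floor, apart from 1 splenocyte chip of Rpl3l.

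Rps19 was the member with the smallest adjusted p. It encodes a small-subunit protein that is mutated in Diamond-Blackfan anaemia in humans. Its signal was 53375.2, 45317.3 and 51981.6 in IL-15 NK cells, against 23861.2, 22043.7 and 18362.7 in resting NK cells. All IL-15 NK arrays stood above all resting ones, and all NK arrays stood below the splenocyte chips, which had 118407.4, 126050.1, 98193.4 and 89424.9. The fold was 2.35 (a log2 difference of 1.23 with an SE of 0.17 over 3 arrays a group, limma adjusted p = 0.00074).

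Rps27l, a paralog of Rps27 and a known target of p53, had the largest rise. It had 9069.0, 9648.5 and 7624.3 in IL-15 NK cells and 2912.7, 4991.8 and 2065.9 in resting NK cells, with no overlap (2.81-fold, limma adjusted p = 0.0044). Its 3 probe sets rose alike, by 1.49, 1.32 and 1.43 on the log2 scale, each past the threshold when probe sets were tested singly. Rps6, the protein phosphorylated by the S6 kinases downstream of mTOR, had 10588.2, 6908.8 and 9411.8 in IL-15 NK cells and 4793.1, 4442.1 and 4013.0 in resting NK cells. This was a 2.0-fold rise (limma adjusted p = 0.0053), with the lowest IL-15 NK array above the highest resting one.

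Rpl12, which sits at the base of the large subunit's stalk, had 3501.5, 3456.3 and 3916.7 in IL-15 NK cells and 1583.5, 1378.0 and 1886.3 in resting NK cells (2.26-fold, limma adjusted p = 0.0031). Rpl7l1, a paralog of Rpl7, had 9372.0, 7288.5 and 8380.4 in IL-15 NK cells and 4316.5, 3433.7 and 4210.0 in resting NK cells (2.09-fold, limma adjusted p = 0.0025). In both genes the groups were separated by more than their own spread. Rpl14, of the large subunit, had 2236.2, 2826.1 and 2089.2 in IL-15 NK cells and 744.3, 1614.1 and 991.2 in resting NK cells (2.23-fold, limma adjusted p = 0.020). The groups did not overlap, but the resting arrays were widely spread. The call was lost without resting replicate 1, IL-15 replicate 1 or IL-15 replicate 2, and with every gene tested.

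Rps27 and Rpl27a fell. Rps27, a zinc finger protein of the small subunit and the main gene beside Rps27l, had 269.3, 445.0 and 53.0 in IL-15 NK cells, the last below the floor, against 1189.9, 607.8 and 669.8 in resting NK cells. It was at least 2.82-fold lower after IL-15 (limma adjusted p = 0.019), with no overlap. The bound rests on dim signals, and without IL-15 replicate 1, IL-15 replicate 3 or resting replicate 1 the call was lost. It was also lost with the floor at the 20th percentile and with every gene tested. The much brighter probe set shared by Rps27 and its retrogene copy Rps27rt moved the same way: 43646.2, 56110.0 and 38476.2 in IL-15 NK cells, against 84326.1, 165223.4 and 77632.5 in resting NK cells (a log2 difference of -1.17 with an SE of 0.29, limma adjusted p = 0.015). Rps27 and Rps27l were called in opposite directions, Rps27 on 1 dim single-symbol probe set and Rps27l on its brightest of 3. The signal of the shared probe set cannot be assigned to Rps27 alone.

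Rpl27a, of the large subunit, had 3048.4, 2187.4 and 1696.1 in IL-15 NK cells, 3505.7, 5486.8 and 5939.7 in resting NK cells and 871.8 to 1232.2 in splenocytes. It fell 2.16-fold after IL-15 (limma adjusted p = 0.015). This call was lost without IL-15 replicate 3, with every gene tested and with the mean over probe sets. The brighter probe set that Rpl27a shares with 4 other symbols had mean log2 signals of 15.93 in IL-15 NK and 16.18 in resting NK cells without a difference past the threshold (limma adjusted p = 0.58).

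**Figure D2:**
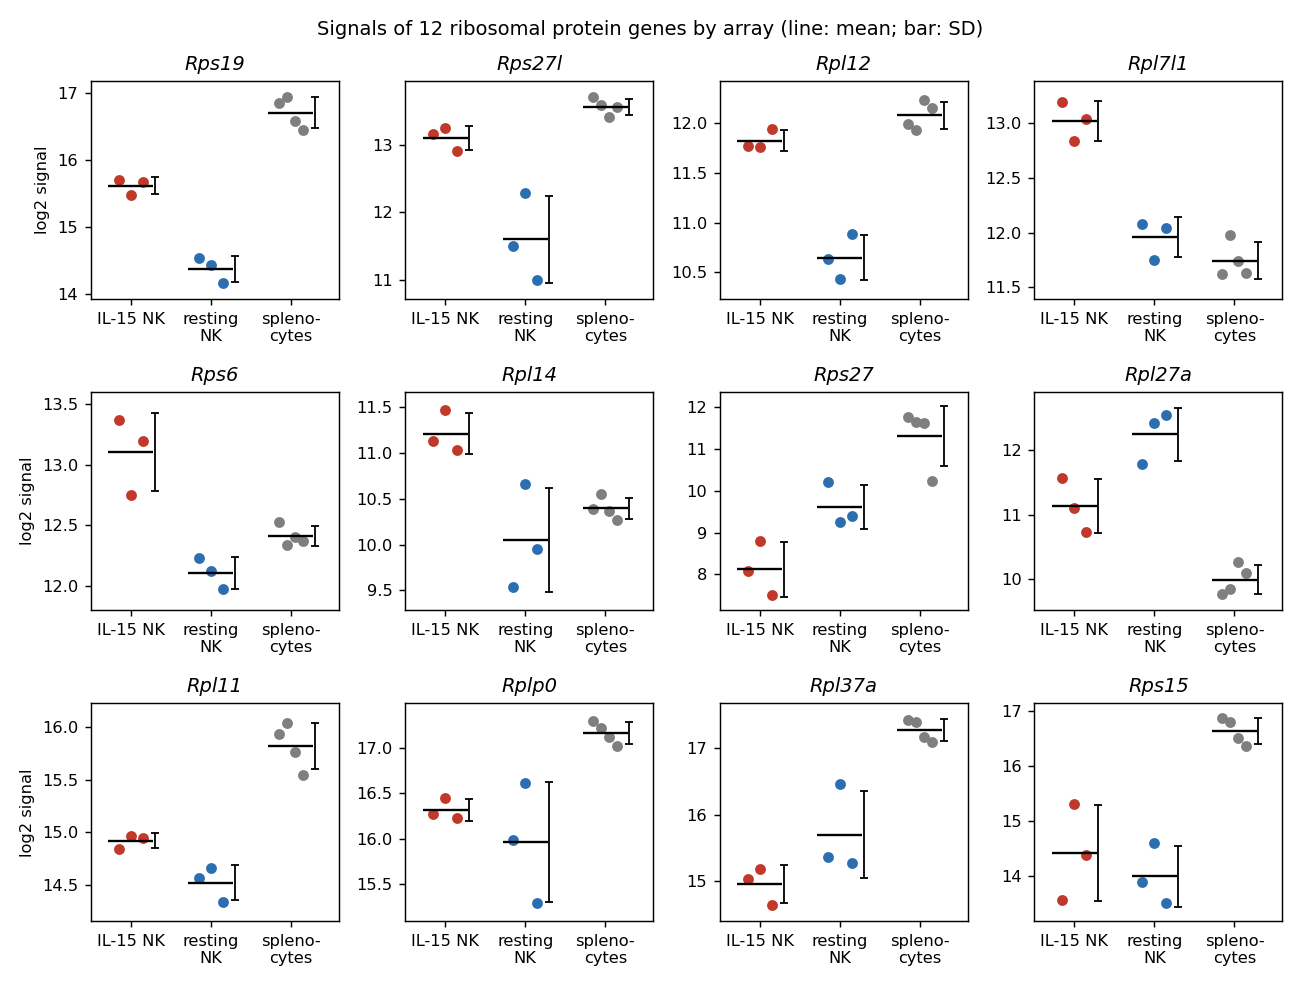
Log2 signals of 12 ribosomal protein genes, with 1 point per array, the group mean as a line and the SD as a bar at its side, for IL-15 NK cells, resting NK cells and splenocytes. The first 6 genes were higher and Rps27 and Rpl27a lower after IL-15 than at rest, while Rpl11, Rplp0, Rpl37a and Rps15 did not pass in that comparison.

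Several members with roles beyond or at the edge of the ribosome did not pass, as 40 of all 48 did not. The stalk proteins Rplp0 and Rplp2, which recruit translation factors, differed by 0.35 (95% interval -0.29 to 1.0) and -0.10 (-0.68 to 0.49) on the log2 scale. Rpl11, which with Rpl5 binds Mdm2 when ribosome assembly is disturbed, had 29389.3, 31984.0 and 31636.6 in IL-15 NK cells and 24344.3, 25961.4 and 20806.4 in resting NK cells. The groups did not overlap, but the difference of 0.39 did not pass (limma adjusted p = 0.11). Rpsa, also known as the laminin receptor, differed by -0.14 and Fau, made as a fusion with a ubiquitin-like protein, by 0.13. For these genes the intervals include 0, except that of Rpl11 (0.03 to 0.76).

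The 5 members with the brightest probe sets, Rpl13a, Rps29, Rps3a1, Rps18 and Rps4x, all differed by less than 0 (from -0.50 to -0.21) and did not pass. Rps29 had 114057.4, 103669.2 and 102575.3 in IL-15 NK cells and 127446.4, 199723.3 and 134310.4 in resting NK cells, with every IL-15 NK array lower (limma adjusted p = 0.12). Rpl13a had 132339.7, 112985.8 and 120087.4 in IL-15 NK cells and 148484.8, 220496.2 and 141565.5 in resting NK cells, again without overlap (limma adjusted p = 0.15). In both, resting replicate 2 was the highest array. Brightness depends on the probes as well as on the transcript, so it does not rank genes by amount. The dimmest members were Rps16, Rpl3l, Rpl39l, Rps4l and Rps27. The single-gene probe set of Rps16 stayed below the floor on all 10 arrays, while 2 probe sets shared with its pseudogene had group means of 16.51 to 17.29 on the log2 scale.

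Of the family's paralogs 5 were tested, too few to read against the 26.3% of all genes that passed, and 2 were higher and 0 lower. Besides Rps27l and Rpl7l1, Rpl22l1, which Rpl22 represses in mouse, had 27307.8, 27667.1 and 25412.8 in IL-15 NK cells and 27008.4, 26303.2 and 20301.6 in resting NK cells, with overlap (log2 difference 0.14, 95% interval -0.25 to 0.52). Rpl22 itself, an RNA-binding protein of the large subunit, differed by 0.04 in its brightest probe set, while its 2 dimmer probe sets rose by 1.39 and 0.69 (limma adjusted p = 0.018 and 0.024, probe sets tested singly). Rpl39l, known from male germ cells, and Rps4l did not pass, with intervals of -1.28 to 0.50 and -0.68 to 1.1. Their main genes Rpl39 and Rps4x differed by -0.43 and -0.29 and did not pass. Rpl7, beside Rpl7l1, differed by -0.15 (limma adjusted p = 0.59). Rpl3l, known from heart and skeletal muscle, was below the floor on every NK array.

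Probe sets of the same gene often disagreed in size and in sign. Tested singly, 15 of the 99 member probe sets tested were higher and 2 lower after IL-15 than at rest, against 12.2% and 11.6% of all probe sets (23.9% in all). Of 21 genes with at least 2 probe sets tested, 11 had differences of both signs, and the differences spanned more than 1 log2 unit in 5. None had probe sets past the threshold in opposite directions, but most of these probe sets did not pass at all. The widest span was in Rps24. Its dimmest tested probe set had 4729.7, 3577.3 and 5580.9 in IL-15 NK cells and 369.2, 239.5 and 1062.7 in resting NK cells, a log2 difference of 3.32 with an SE of 0.47 (limma adjusted p = 0.00077). The other 4 tested probe sets of Rps24, all brighter, differed by -0.68 to -0.37 and did not pass.

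In Rps10, 1 of 6 probe sets passed, the dimmest, at 1.63 (limma adjusted p = 0.019), and the others lay between -0.19 and 0.68. In Rps9 the dimmest of 3 passed at 1.42 (limma adjusted p = 0.0071), and the brightest was at 0.09. A similar split ran through the shared probe sets of genes called higher. For Rps6, 1 shared probe set rose by 1.14 (limma adjusted p = 0.0057), while the 7 others tested, at -0.43 to 0.32, missed the threshold. For Rpl14, 1 of 5 shared probe sets rose, by 0.82, and the other 4 differed by -0.25 to -0.07. Both shared probe sets of Rpl12 missed the threshold, at 0.38 and -0.04, and that of Rps19 lay near the floor.

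By brightness, member probe sets with a mean log2 signal under 14 had a median difference of 0.46 after IL-15 (35 tested, 12 higher and 2 lower, where 2428 were higher and 2326 lower of 20102 other probe sets of that brightness). Those from 14 to under 16 had a median of 0.30 (26 tested, 3 higher and 0 lower, where 119 were higher and 111 lower of 748 others). Those of 16 or above had a median of -0.19, with 0 of 38 past the threshold, where 1 was higher and 2 lower of 31 others. Of these 38, 11 were lower on every IL-15 NK array than on any resting one. That was so for 21.7% of all probe sets but for 18 of the 31 others as bright. All other probe sets had medians of -0.10, -0.02 and -0.37 in the same 3 classes.

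**Figure D3:**
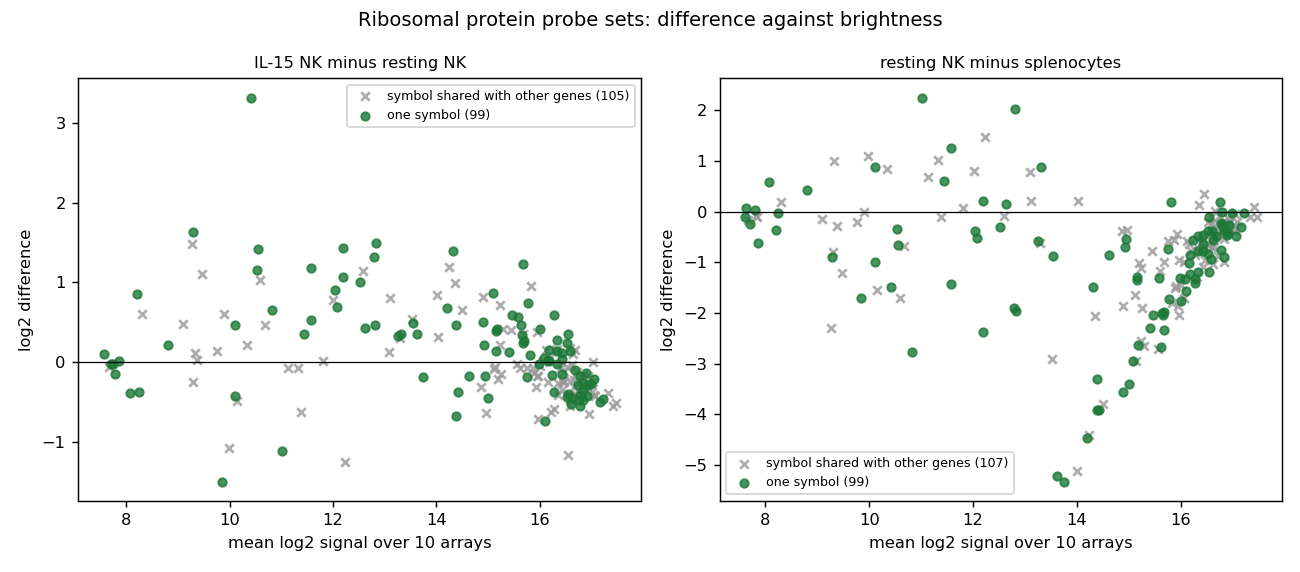
Log2 difference of each tested ribosomal protein probe set against its mean log2 signal over the 10 arrays, for IL-15 NK minus resting NK cells (left) and resting NK cells minus splenocytes (right); circles carry 1 symbol, crosses carry symbols of other genes too. On the left, single-symbol probe sets have medians of 0.46 under 14, 0.30 from 14 to under 16 and -0.19 above; on the right most lie under 0, with medians over single-symbol probe sets of -0.37 under 14, -2.02 from 14 to under 16 and -0.52 above.

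In resting NK cells, set against splenocytes, the family was lower, by a median of -0.59 on the log2 scale (-0.06 over all 12938 genes tested, and -0.27 for the family after quantile normalisation). Of 48 members tested 2 were higher and 19 lower, where 38.6% of all genes passed, 17.1% higher and 21.5% lower. In 24 members every resting NK array was below every splenocyte chip, against 27% of all genes, and in 2 every one was above, against 22.7%. The large subunit had 1 higher and 12 lower of 25 (median -0.83), the small subunit 1 higher and 7 lower of 23 (median -0.31). Without resting NK replicate 2 the count of lower members was 34. Both control ratios and the marker sums given above separate these groups.

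Of the 5 largest deficits in resting NK cells, 4 were in small-subunit genes. Rps15 had 15089.8, 24632.7 and 11549.1 in resting NK cells and 119325.9, 112984.4, 93086.8 and 84236.1 in splenocytes, 6.24-fold lower (limma adjusted p = 0.0033). Rps19 was 5.02-fold lower (a log2 difference of -2.33 with an SE of 0.19, limma adjusted p = 3.4e-05), and Fau 4.89-fold lower (limma adjusted p = 0.0016). Fau had 22255.5, 34798.5 and 14708.6 in resting NK cells, against 89165.6 to 129414.5 in splenocytes. All resting arrays of these 3 genes were below all splenocyte chips. Rpl27, of the large subunit, was 4.02-fold lower (limma adjusted p = 0.00013), and Rps27l 3.88-fold lower (limma adjusted p = 0.0020). The dimmer probe sets of Rpl27 differed by -0.54 and -0.86 and did not pass when tested singly (limma adjusted p = 0.18 and 0.1).

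Rpl27a and Rps25 were the 2 members higher in resting NK cells than in splenocytes, by 4.75-fold (limma adjusted p = 0.00071) and 1.85-fold (limma adjusted p = 0.0062). Rps25, a small-subunit protein used in internal ribosome entry, had 10589.9, 11821.3 and 14314.2 in resting NK cells, against 6363.6 to 6796.2 in splenocytes. For both genes the bright shared probe set pointed the other way. That of Rps25 was lower, by -1.90 (limma adjusted p = 0.0055), and that of Rpl27a differed by -0.95 (limma adjusted p = 0.052). Of the special members, Rplp0 was 2.29-fold lower (limma adjusted p = 0.021) and Rpl11 2.45-fold lower (limma adjusted p = 0.00043), while Rplp2 and Rpsa, at -0.48 and -0.47, did not pass. Rpl22 and Rpl22l1 were 1.71-fold and 2.57-fold lower (limma adjusted p = 0.043 and 0.00038). The Rpl22 call was lost in 8 of 20 alternatives, among them quantile normalisation and leaving out resting replicate 1 or 3. That of Rpl22l1 held in all 20, but its 1 single-symbol probe set leaves no choice of probe set to vary.

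IL-15 NK cells, set against splenocytes, gave 4 members higher and 21 lower of 48 tested, where 44.3% of all genes passed, 20.8% higher and 23.5% lower. The family's median was -0.66 (-0.10 over all 12465 genes), but -0.08 after quantile normalisation, with 7 members higher and 10 lower (41.2% of the calls higher, against 16% without it). Without IL-15 replicate 3 the lower members numbered 12 and without IL-15 replicate 1 the higher members numbered 2, while a fit of these groups alone gave 35 lower. In 35 members every IL-15 NK array was below every splenocyte chip, against 29.8% of all genes, and in 6 every one was above, against 27.8%. Rps27 was at least 9.19-fold lower (limma adjusted p = 0.00084), Rpl37a 4.93-fold (limma adjusted p = 0.0011), Rps15 4.66-fold, Fau 4.46-fold and Rps24 3.42-fold lower. Rpl37a, of the large subunit, had 33787.9, 37305.5 and 25564.3 in IL-15 NK cells, against 138649.9 to 175005.2 in splenocytes. Both comparisons with splenocytes use the same 4 chips.

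Rpl7l1 was 2.43-fold higher in IL-15 NK cells than in splenocytes (limma adjusted p = 0.00062), where 3147.9 to 4029.0 were measured. Rps25 was 2.37-fold, Rpl27a 2.20-fold and Rps6 1.62-fold higher (limma adjusted p = 0.0010, 0.018 and 0.020). The call for Rps6 was lost with the mean over probe sets and without IL-15 replicate 1 or 3. That of Rpl27a was lost with every gene tested and without IL-15 replicate 1. All 4 higher members were among the 12 tested with a mean log2 signal under 14. Of the 28 members at 16 or above, 0 were higher. Among other genes 2320 of 11808 and 3 of 28 were higher in these classes. Rpl12, Rps27l and Rpl14, which rose after IL-15, differed from splenocytes by -0.25, -0.47 and 0.81 and did not pass. The dimmer probe sets of Rps27l did pass as lower when tested singly, at -0.58 and -0.94 (limma adjusted p = 0.034 and 0.012). Rps19 remained 2.14-fold lower than in splenocytes (limma adjusted p = 0.0016).

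**Figure D4:**
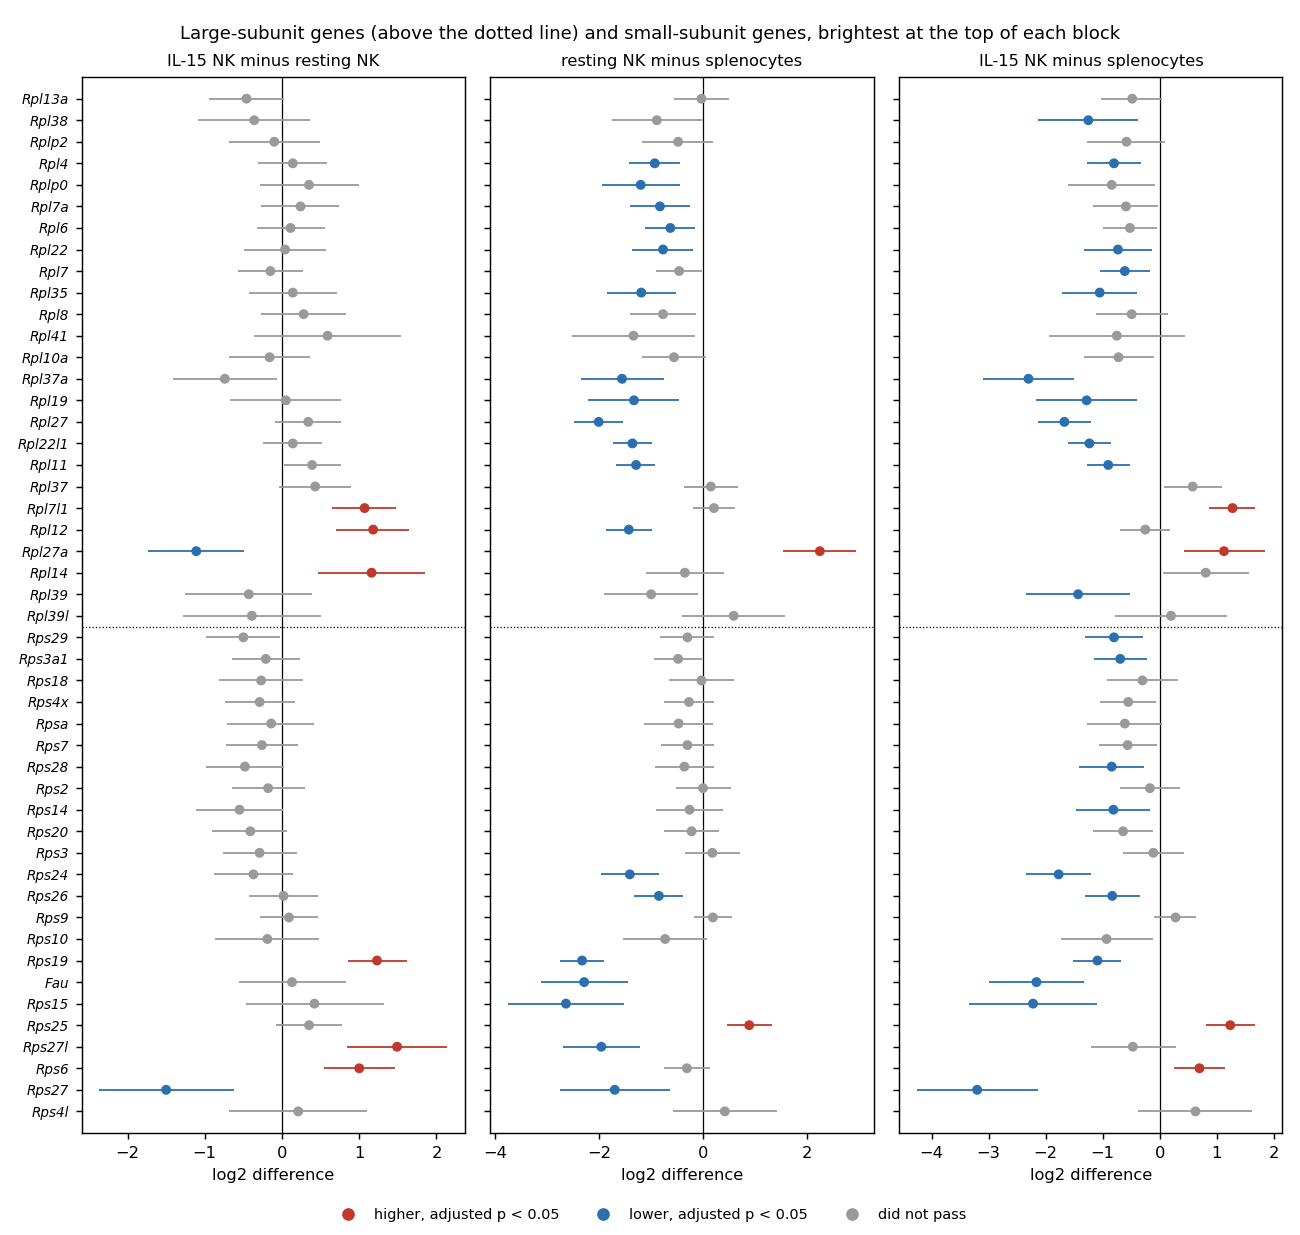
Log2 difference of each of the 48 tested genes, with its 95% interval (unadjusted) as a bar, for IL-15 NK minus resting NK cells, resting NK cells minus splenocytes and IL-15 NK cells minus splenocytes. Coloured points passed an adjusted p of 0.05 in limma: 6 higher and 2 lower in the first panel, 2 and 19 in the second, 4 and 21 in the third.

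Against splenocytes the probe sets of a gene differed far more. In resting NK cells, set against splenocytes, differences spanned more than 1 log2 unit in 13 of 20 genes with at least 2 probe sets tested, with a median span of 1.74. Rps15 was at -2.64 in one probe set and -5.21 in the other, Rpl37a ranged from -5.33 to -1.56 over 3, and Rpl7 from -3.92 to -0.46 over 3. A second probe set of Rpl37a had 2600.3, 5800.7 and 2338.1 in resting NK cells, against 115802.4 to 146078.8 in splenocytes, a 40.2-fold deficit where its brighter probe set showed 2.95-fold. Rpl41, which encodes a very short protein of the large subunit, ranged from -1.34 to 2.03 over 4. In IL-15 NK cells, set against splenocytes, Rps24 alone had probe sets past the threshold both ways: 4 lower, down to -4.29, and the dimmest tested higher by 1.85 (limma adjusted p = 0.028). Tested singly, 5 member probe sets were higher and 44 lower of 99 in resting NK cells (15% and 23.1% of all probe sets, 38.1% in all), and 9 higher and 47 lower of 98 in IL-15 NK cells (17.1% and 25.2%, 42.4% in all), each set against splenocytes. Of the probe sets shared with other genes, 4 were higher and 34 lower of 107 in resting NK cells and 7 higher and 43 lower of 107 in IL-15 NK cells; with these counted, 38.2% and 42.5% of all probe sets passed. After IL-15, 9 of 105 were higher than at rest and 2 lower, where 23.7% passed.

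Genes that assemble ribosomes or regulate their use were on the same arrays. Of 27 genes for chaperones of ribosomal proteins and late subunit maturation, 20 were higher and 1 lower after IL-15, with a median difference of 1.12, where 14.2% of all genes were higher, 12.1% lower and the median was -0.09. Grwd1, the chaperone of Rpl3, had 5805.3, 5160.6 and 6687.8 in IL-15 NK cells and 1338.7, 1148.2 and 1065.2 in resting NK cells (a log2 difference of 2.31 with an SE of 0.21, limma adjusted p = 6.7e-05). Wdr12, which acts with Pes1 and Bop1 on the large subunit, rose by 2.32 and Rsl24d1, a large-subunit assembly factor, by 2.23. The kinase gene Riok1, which acts late on the small subunit, was lower, at -1.81 (limma adjusted p = 0.00049). It had 3409.8, 2487.4 and 2699.4 in IL-15 NK cells and 12869.4, 10315.9 and 7369.9 in resting NK cells.

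The lists that follow stand beside the same 26.3% of all genes that passed after IL-15. Of 22 other genes with a TOP motif, 8 were higher and 0 lower after IL-15 by limma, with a median of 0.38. Ncl (nucleolin) rose by 1.28, Eif2s3x by 1.27 and Npm1 (nucleophosmin) by 1.24. Eef1a1, an elongation factor gene, had 122089.3, 97051.1 and 115274.3 in IL-15 NK cells and 132616.6, 178542.6 and 133516.4 in resting NK cells without passing (limma adjusted p = 0.17). Of 13 genes that regulate TOP translation or phosphorylate Rps6, a share near that background passed, 3 higher and 0 lower: Eif4e, the cap-binding protein, by 1.79, Larp4 by 1.54 and Larp1, which binds the TOP motif, by 0.87. Of 9 genes of stalled-ribosome rescue, Abce1, which recycles ribosomes, and Gtpbp1 rose by 1.79 and 0.73, and Gtpbp2 and Ascc3 fell by 2.24 and 0.94 on the log2 scale.

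Against splenocytes these lists did not run with the ribosomal proteins in every case. In resting NK cells, 3 assembly genes were higher and 7 lower of 27, a share near the 38.6% of all genes that passed, led by Riok1 at 2.70, Rrs1 at 1.21 and Eif6 at 0.93 and by Pno1 at -2.04, Wdr12 at -1.70 and Lsg1 at -1.47. In IL-15 NK cells, where 20.8% of all genes were higher and 23.5% lower, 15 were higher, led by Rrs1 at 2.55, Bysl at 2.23 and Tsr1 at 2.01, and 1 lower, Sbds at -0.89. Of the other TOP genes, 2 were higher and 8 lower of 22 in resting NK cells, where 17.1% of all genes were higher and 21.5% lower. Their median there was -0.41, against -0.06 over all genes and -0.59 for the family. In IL-15 NK cells 5 were higher and 6 lower, with a median of 0.11 against -0.1 over all genes. Either way together, 38.6% and 44.3% of all genes were called, a share that does not show direction. Naca, a chaperone of nascent chains, was at -2.57 in resting NK cells and at -2.16 after IL-15, and Eif3k at -1.75 and -1.58.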

How the data were processed

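Per the submitters' processing notes the authors used GCOS 1.4, and the values the authors deposited are linear intensities, 1 for each array and probe set. The summary algorithm is not given in the sources used here. After trimming 2% at each end, all arrays had a common mean, so no further scaling was applied. The median over arrays of each array's 40th percentile (179.8) served as floor, and log2 of the floored signals was analysed. Of 45101 probe sets, 34945 carried 1 gene symbol, 932 several and 9160 none, and 64 were controls. The brightest probe set on average (log2) stood for a gene, which was tested where 3 or more of the arrays being compared exceeded the floor.

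Differences were fitted over all genes in R 4.3.3 by limma 3.58.1 with an intensity trend in eBayes (Benjamini-Hochberg, threshold 0.05). IL-15 and resting NK cells were fitted over 6 arrays without a replicate block. For splenocytes the 3 groups shared 1 variance. Which of the 4 chips share a biological sample is not given in the sources used here, so chips were averaged in pairs in all 3 ways and the highest p was used. Folds are ratios of geometric means. P-values measure only the spread between these samples. The design text speaks of pairs of NK samples but does not tie them to array numbers. Same-numbered arrays deviated together with correlations of 0.10, 0.28 and 0.07, not all above the 0.1 required, so the numbers were not taken as pairs, and the fit with them as a block is an alternative. The number of arrays limits the precision. The fits were tested on simulated data.

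The family, the gene lists and the rule for named genes (all members past the threshold after IL-15, the 5 largest differences each way against splenocytes, the 5 brightest and dimmest, paralogs with their main genes, and members of known special roles) were chosen with earlier results of these data known. Rpl41, Rps9, Rps10 and Rpl35, named beyond it, were chosen after their values were seen. Rps12, Rpl36a, Rpl31, Rpl15, Rpl3 and Rpl13, named on shared probe sets, and Eef1a1 also lie outside this rule. Their values were known when they were named. Lists are described by counts and medians, with no test of a list.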

Additional observations from a re-analysis of the deposited data

Results flagged for a closer look

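Of the 48 ribosomal protein genes examined for a single splenocyte chip apart from the other 3, Rps27 had one. Chip 4 had a log2 signal of 10.24, below the 11.63 to 11.76 of the other chips, with a gap of 0.915 of the whole range. For independent values, chance alone marks about 5% of groups examined this way, and 1 of 48 is below that share. The splenocyte chips are not all independent samples, so this rate is approximate here.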

How the results depend on the processing

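Rps19 and Rpl12 passed in IL-15 NK against resting NK cells under each of the 19 alternatives run for them. Each has only 1 single-symbol probe set, so alternatives that choose or combine probe sets left its signals unchanged. Of genes with more probe sets, Rps27l failed only when every gene was tested (limma adjusted p = 0.079). Rpl7l1 failed only with the dimmest probe set, and Rps6 only with the mean over probe sets. Of the counts recomputed, 140 stayed within 1.5 times and 37 did not.

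For IL-15 NK against resting NK cells, members lower numbered 1 with the floor at the 20th percentile, 0 with every gene tested and 1 with the mean over probe sets. With probe sets tested singly 15 member probe sets were higher and 5004 of all passed, and every gene tested gave 1646 calls. For resting NK cells against splenocytes, 12 members were lower with every gene tested, 4 higher with the dimmest probe set, and 5 higher and 44 lower of 9129 calls singly. For IL-15 NK cells against splenocytes, 10 members were lower with every gene tested and 10 after quantile normalisation (7 higher), 32 with 4 chips as 4 samples, 35 with the 2 groups alone, 7 higher with the dimmest probe set, and 9 higher and 47 lower of 9797 calls singly. With shared probe sets added, chosen after seeing the data like the dimmest probe set, members higher and lower were 24 and 4 (5117 calls), 9 and 78 (9414) and 16 and 89 (10101) in the same order of comparisons.

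Leaving out 1 array gave 5 to 11 members higher and 0 to 2 lower after IL-15, with 1963 to 3241 genes called. Against splenocytes it gave 2 higher and 15 to 34 lower in resting NK cells (4441 to 5188 genes) and 2 to 4 higher and 12 to 23 lower in IL-15 NK cells (4616 to 5221). Resting replicate 2 gave the 11 and the 34, IL-15 replicate 3 the 1963, the 0 and the 12, IL-15 replicate 1 the 2 higher in IL-15 NK cells, and resting replicate 1 or IL-15 replicate 1 left 1 lower. With the replicate number as a block 6 members were higher and 3 lower (3421 genes called), and IL-15 replicate 1 correlated best with resting replicate 3 (0.15), so not every array correlated best with its own number.

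Among results that passed, those reversed were Rps24 (0.07 in resting NK cells and 1.85 after IL-15 with the dimmest probe set, and 1.85 without probe sets ending in x_at), Rpl22 (0.15) and Rpl35 (0.47) with the dimmest probe set, and Rpl7 (0.07) after quantile normalisation, all against splenocytes and in IL-15 NK cells where not said. Among members that did not pass, 8 of 40, 19 of 27 and 16 of 23 passed under some alternative (IL-15 NK against resting NK cells, then resting and IL-15 NK cells against splenocytes), with 3, 4 and 6 fits past the threshold in the opposite direction. After IL-15 these were Rps24 (3.32, dimmest probe set or x_at left out) and Rps10 (1.63, dimmest). The cause was not tested. Scaling moved the median of all genes from -0.09 to -0.20 when centred (IL-15 NK against resting NK cells, 42.8% of calls higher against 53.9%) and, after quantile normalisation, from -0.10 to 0.11 and from -0.06 to 0.05 against splenocytes in IL-15 and resting NK cells. Members near the floor, such as Rps27, carry bounds only.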

Other observations

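The 28 family symbols found only on probe sets shared with other genes add further members, whose signal cannot be assigned to the gene or to its pseudogenes. Rps12, a small-subunit protein, had 2 such probe sets higher after IL-15 than at rest. One had 22094.7, 18291.0 and 17612.3 in IL-15 NK cells, against 12029.3, 7893.7 and 9491.3 in resting NK cells (log2 difference 0.99, limma adjusted p = 0.0059), and the other was at 1.48 (limma adjusted p = 0.016), while its brightest probe set was at -0.24 and did not pass. Single probe sets of Rpl36a with Rpl36al, Rpl31, Rpl15 and Rpl3 were higher too, by 1.19, 0.78, 0.80 and 1.03, each past the threshold. The probe set shared by Rpl13 and Tax1bp3 was lower, by -1.25 (limma adjusted p = 0.0094). The brightest probe sets of Rpl3, Rpl5 and Rplp1 differed by -0.21, -0.41 and 0.18 and did not pass. Over the 105 shared probe sets tested, 9 were higher and 2 lower, and with these counted 23.7% of all probe sets passed.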
